A study of Mus musculus with 9 samples.

Results

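The genes described here encode laminins, fibronectin and other glycoproteins and proteoglycans of the extracellular matrix, measured as mRNA in B16F10 mouse melanoma cells in which Sirpa had been perturbed. They were the protein-coding genes of the laminin chain, fibulin, fibrillin, latent TGF-beta binding protein, matrilin, hyaluronan link protein, nidogen and Efemp families, together with Fn1, Hspg2, Agrn, Sparc, Tnc, Vcan, Bgn, Dcn, Lum, Coch, Thbs2 and Thbs3. The choice was by gene name, made with earlier results of these data known, and it gave 45 of the 51717 genes in the tables. mRNA sequencing had been done from 3 lines of B16F10, a Sirpa overexpression line, a Sirpa knockdown line and a line with a non-target control, with 3 libraries of each called biological repeats. All were grown in DMEM with serum and antibiotics. SIRPA is the inhibitory receptor for CD47 that is best known from macrophages, and B16F10 is a pigmented line from a C57BL/6 melanoma. Each condition is a single line. The p-values therefore set differences against the variation among repeats of 1 line, and an effect of Sirpa cannot be told apart from another difference between the lines. How the knockdown and the overexpression were made, whether the lines were clones or pools, and whether the control carried the same vector are not stated in the labels.

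Laminins are trimers of an alpha, a beta and a gamma chain that polymerise on the cell surface and form the base of a basement membrane, where nidogens, perlecan (Hspg2) and agrin (Agrn) join them to collagen IV and to receptors. Fibronectin (Fn1) is assembled by integrins into fibrils that other matrix proteins are laid upon, while fibrillins, fibulins and latent TGF-beta binding proteins build elastic fibres and hold TGF-beta in the matrix. Melanoma cells bind laminin and fibronectin through integrins, dystroglycan and syndecans, and B16F10 is widely used to study how such contacts bear on spread to the lung.

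RefSeq promoter windows, 250 bases before to 50 bases after the gene start, were at hand for 32 of the 45 genes. Those of Matn3, Nid1, Hapln1 and Coch are shown because these 4 genes had different patterns over the lines. Matn3 was low in both perturbed lines, Nid1 low and Coch high in the knockdown line, and Hapln1 low in the overexpression line. The sequences are from GRCm38.p6, on the plus strand, written 5′ to 3′, at chr12:8947679-8947978 for Matn3, chr13:13437352-13437651 for Nid1, chr13:89540386-89540685 for Hapln1 and chr12:51593091-51593390 for Coch. Capitals mark every GGGCGG (the GC box bound by Sp factors) and CATTCC (the M-CAT element bound by TEAD factors), on either strand.
Matn3: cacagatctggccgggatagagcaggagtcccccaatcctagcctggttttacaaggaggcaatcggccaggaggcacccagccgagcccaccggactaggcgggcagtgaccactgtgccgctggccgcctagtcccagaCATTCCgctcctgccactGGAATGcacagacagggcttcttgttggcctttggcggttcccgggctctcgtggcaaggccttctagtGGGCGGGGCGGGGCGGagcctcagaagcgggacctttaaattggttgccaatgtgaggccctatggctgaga
Nid1: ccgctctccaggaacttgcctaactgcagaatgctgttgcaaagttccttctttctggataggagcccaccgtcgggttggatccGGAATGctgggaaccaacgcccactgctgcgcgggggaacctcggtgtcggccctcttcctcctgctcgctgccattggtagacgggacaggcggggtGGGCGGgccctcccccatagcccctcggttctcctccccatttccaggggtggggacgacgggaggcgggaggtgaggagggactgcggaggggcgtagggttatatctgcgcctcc
Hapln1: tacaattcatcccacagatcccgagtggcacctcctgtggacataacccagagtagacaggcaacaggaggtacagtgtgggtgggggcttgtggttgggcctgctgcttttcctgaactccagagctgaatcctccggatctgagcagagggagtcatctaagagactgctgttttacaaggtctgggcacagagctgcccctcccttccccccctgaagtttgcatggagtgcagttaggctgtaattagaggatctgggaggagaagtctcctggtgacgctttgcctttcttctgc
Coch: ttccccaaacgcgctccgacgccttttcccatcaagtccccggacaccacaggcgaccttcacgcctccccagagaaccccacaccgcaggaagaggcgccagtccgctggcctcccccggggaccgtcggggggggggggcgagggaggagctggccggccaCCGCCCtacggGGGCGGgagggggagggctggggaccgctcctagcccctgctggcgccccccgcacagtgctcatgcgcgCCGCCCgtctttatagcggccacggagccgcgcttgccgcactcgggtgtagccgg
GGGCGG occurred 3 times in the Matn3 window, where the matches run into each other, once in that of Nid1, 3 times in that of Coch and nowhere in that of Hapln1, against at least 1 match in 35.7% of the 32851 windows of the same length in the table. CATTCC occurred 2 times for Matn3, 1 time for Nid1 and not for Hapln1 or Coch, and 14.7% of all windows held it. TGANTCA (AP-1, in 7.81% of all windows), TGACGTCA (cAMP response element, 1.79%) and CACGTG (E-box, 7.15%) were in none of the 4 windows. TATAAA, present in 13.6% of all windows, was found 1 time for Coch and not in the other 3. All motifs were searched on both strands, and a match describes the letters only. GC made up 62.7% of the Matn3 window, 64.7% of that of Nid1, 54.3% of that of Hapln1 and 73.7% of that of Coch.

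The libraries held 16400000 to 22380000 estimated counts in all, including those of transcripts that matched no gene. Sirpa itself stood at 895, 898 and 914 CPM (estimated counts relative to the library size, with sizes scaled by the TMM method) in the overexpression libraries, 118, 112 and 115 CPM in the libraries of the knockdown line and 292, 289 and 303 CPM in the controls, so each line matched its label. All 12 melanocyte markers were expressed, and their summed level was 24900 to 25400 CPM in the overexpression line, 21900 to 22700 CPM in the knockdown line and 22000 to 22400 CPM in the control line. By the edgeR test described below (adjusted p under 0.05), 6 were higher and 2 lower in overexpression against control. In knockdown against control 2 were higher and 7 lower. Of all tested genes, 24.3% and 35.4% passed in these 2 comparisons. Trpm1 averaged 373 CPM in the overexpression line, 44.8 CPM in the knockdown line and 234 CPM in the control line. Of 13 fibroblast markers 8 passed the filter on low counts, Col6a2 and Thy1 were at 0 in every library, and the list summed to 130 to 141 CPM in the overexpression line, 78.5 to 90.9 CPM in the knockdown line and 116 to 123 CPM in the control line. Of 12 endothelial markers 4 passed, with Cdh5, Cldn5, Kdr and Tie1 at 0 throughout and sums of 299 to 317 CPM in the overexpression line, 354 to 390 CPM in the knockdown line and 270 to 290 CPM in the control line. Of 13 macrophage markers 3 passed, Ptprc, Adgre1, Fcgr1 and all C1q genes were at 0, and the sums were 6.22 to 8.31 CPM in the overexpression line, 12.8 to 13.5 CPM in the knockdown line and 5.52 to 6.65 CPM in the control line. Of 12 epithelial markers 1 passed, 9 were at 0, and the sums were 1.12 to 1.51, 0.536 to 1.46 and 1.63 to 2.24 CPM in the overexpression, knockdown and control lines. Genes of a list did not move together. Of the fibroblast markers, Col1a1 averaged 66.5 CPM in the overexpression line, 4.95 CPM in the knockdown line and 55.6 CPM in the control line, while Postn stood at 14.1, 13.2 and 15.5 CPM in the overexpression libraries, 37, 29.3 and 35.9 CPM in the knockdown libraries and 15, 13.8 and 16.3 CPM in the controls. The endothelial sums were nearly all Eng, at 291 to 310 CPM in the overexpression libraries, 344 to 379 CPM in the knockdown libraries and 260 to 278 CPM in the controls, and Mertk held most of the macrophage sums. The part of these genes in the results below was not tested.

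B16F10 cells expressed some of these matrix genes and not others. Per length, in TPM (Salmon's counts scaled by transcript length to the same total in each library), Sparc, a collagen-binding glycoprotein that loosens cell contact with the matrix, was the most abundant in every line, at 631 ± 24 TPM in the overexpression line, 584 ± 23 TPM in the knockdown line and 753 ± 13 TPM in the control line (SD, n = 3 each). It made up 54.3%, 55.3% and 55.1% of the summed TPM of all 45 genes in the overexpression, knockdown and control lines. That sum was 1160 ± 42 TPM in the overexpression line, 1060 ± 42 TPM in the knockdown line and 1370 ± 26 TPM in the control line, and the 3 control libraries (1350 to 1400 TPM) lay above all 6 others (1010 to 1210 TPM). In bulk RNA, fewer cells that express a gene and less RNA per cell cannot be told apart.

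The order below Sparc differed between the lines. In the control line it ran Fbln5 (125 TPM), Fbln1 (106 TPM), Fn1 (89.6 ± 1.9 TPM) and Agrn (48 TPM), and Lamc1, the gamma 1 chain of most laminins, came 9th at 26.3 TPM. In the overexpression line Lamc1 was 4th, at 43.2 ± 1.7 TPM, and Fn1 was 9th, at 23 ± 3.1 TPM. In the knockdown line Lamc1 was again 4th, at 52.0 ± 2.5 TPM, and Fn1 was 10th, at 21.4 TPM. Lamc1 thus stood above Fn1 in both perturbed lines and below it in the control line, by more than the SD of either gene, while Fbln5 and Fbln1 kept the 2nd and 3rd place in all 3. A mean of at least 1 TPM was reached by 21 of the 45 genes in the overexpression line, 24 in the knockdown line and 21 in the control line.

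**Figure D1:**
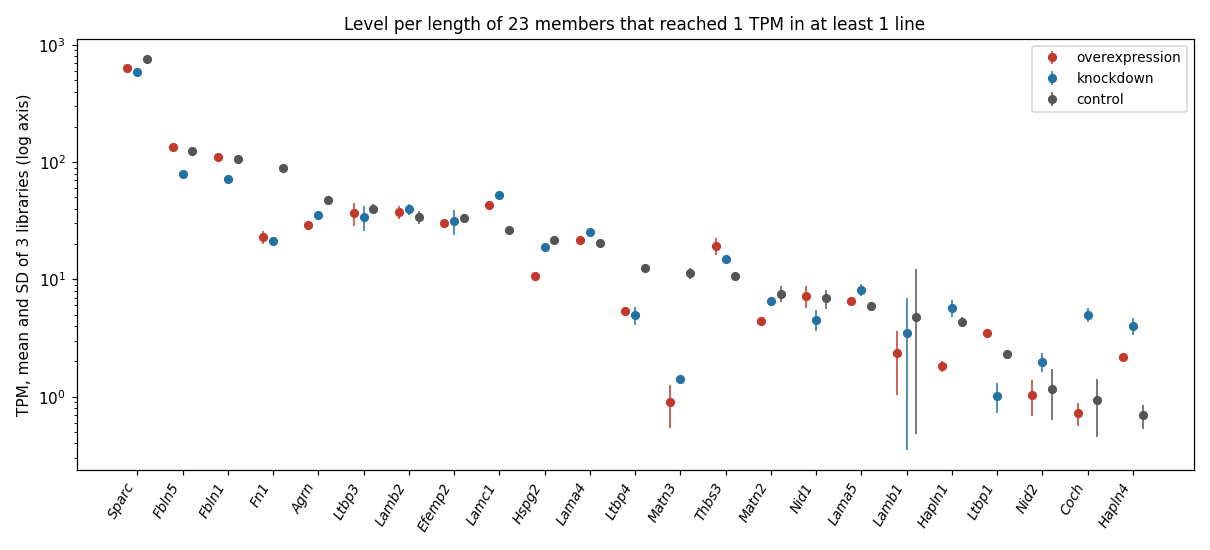
Mean TPM with SD of 3 libraries, on a log axis, for 23 of the 24 matrix genes that reached 1 TPM in at least 1 line, ordered by their level in the control line; red is the overexpression line, blue the knockdown line and grey the control line. Sparc leads in each line, and Fn1, Ltbp4 and Matn3 stand far lower in both perturbed lines than in the control line; a lower error bar that would reach 0 is shortened.

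Of the 45 genes 27 passed the filter on low counts and were tested by the quasi-likelihood method of edgeR. P-values were adjusted by Benjamini-Hochberg over all 13064 genes tested, with calls at an adjusted p under 0.05. In the overexpression line against the control line 12 of the 27 were called (44.4%), 3 higher and 9 lower, where 24.3% of all tested genes were called. In the knockdown line against the control line 17 were called (63.0%), 6 higher and 11 lower, against 35.4% of all tested genes. Between the overexpression and the knockdown line, which is the test of whether the 2 perturbations differ, 14 were called (51.9%), 6 higher and 8 lower in the overexpression line, against 22.1% of all tested genes. The libraries of the 2 lines compared did not overlap for 4 higher and 10 lower matrix genes in overexpression against control (40.4% of all tested genes), 6 higher and 12 lower in knockdown against control (45.8%), and 6 higher and 10 lower in overexpression against knockdown (35.9%). Of the 43 calls made for single genes, 14 were lost under at least 1 of 18 other settings and none changed sign, and at least 1 setting that ended the call is named at each of these genes. Median log2 fold changes of the 27 genes were -0.05 for overexpression against control, -0.25 for knockdown against control and -0.11 for overexpression against knockdown, where those of all tested genes were -0.0012, -0.0077 and 0.0037. Among genes called with at least a 2-fold change, matrix genes numbered 6 in the overexpression line (5 of them lower) and 8 in the knockdown line (5 lower), against 2.2% and 4.62% of all genes. Both comparisons with the control line use the same 3 control libraries. The genes were chosen with earlier results of these data known, which the shares of called genes do not allow for.

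**Figure D2:**
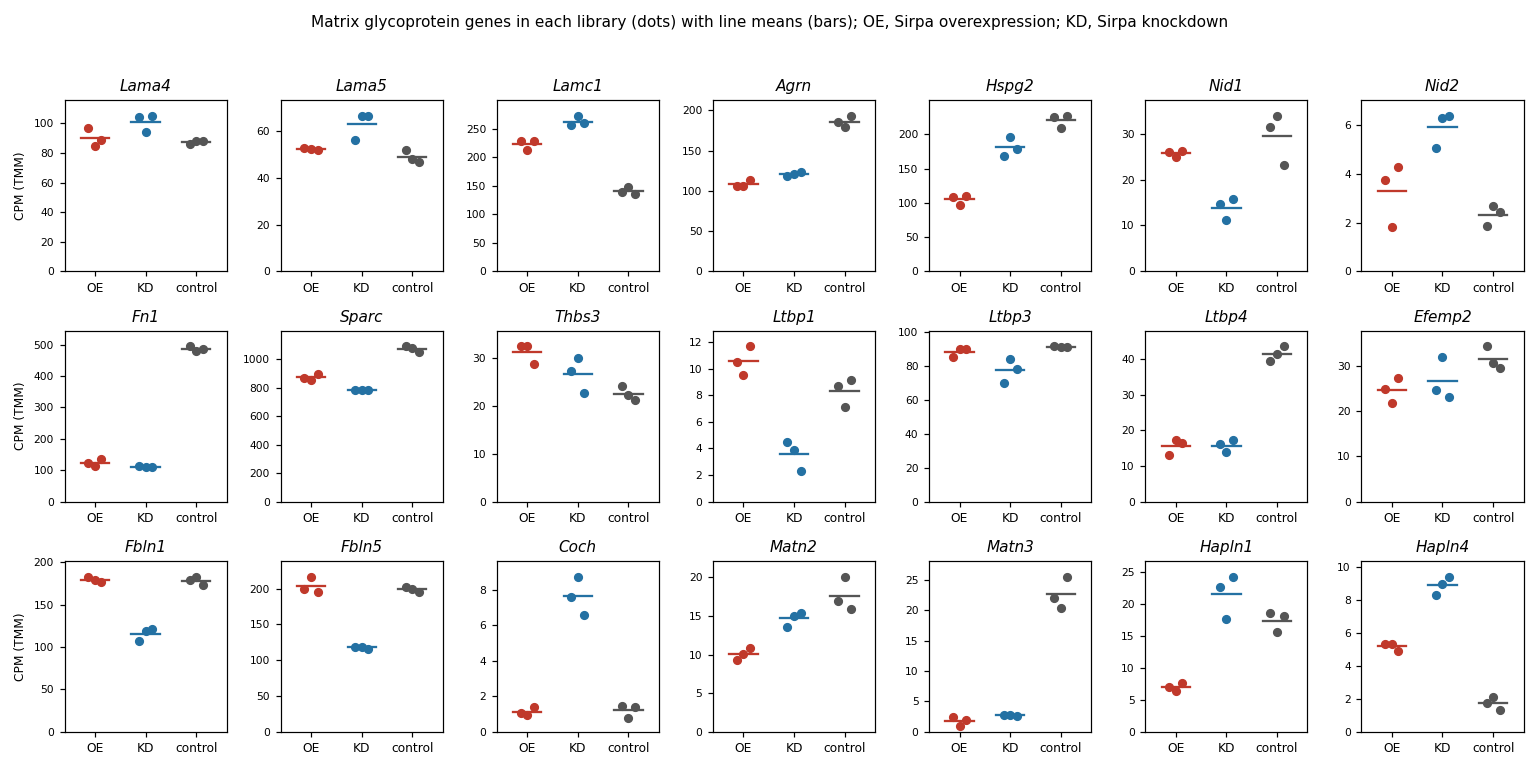
Level in CPM (vertical axes, from 0) of the 21 matrix genes called in at least 1 comparison and reaching a mean of 5 CPM in at least 1 line; dots are libraries and bars are means, with the overexpression (OE), knockdown (KD) and control lines from left to right. Fn1 and Matn3 are low in all 6 perturbed libraries, Coch is high in the knockdown libraries, and Hapln1 is low in the overexpression libraries.

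After Matn3, fibronectin had the largest fall of the 27 tested genes in both perturbed lines. Fn1 was measured at 122, 112 and 135 CPM in the overexpression libraries, 113, 109 and 111 CPM in the knockdown libraries and 495, 480 and 485 CPM in the controls. The 6 perturbed libraries lay close together and far below the 3 controls. The fall was 3.95-fold in the overexpression line (log2 fold change -1.98 ± 0.05 SE, adjusted p = 4.3e-13) and 4.4-fold in the knockdown line (-2.14 ± 0.06, adjusted p = 1.49e-13), and the 2 perturbed lines differed by 0.16 ± 0.06 (adjusted p = 0.0533), short of the threshold. Sparc fell less, with 868, 855 and 895 CPM in the overexpression libraries, 782, 784 and 784 CPM in the knockdown libraries and 1090, 1080 and 1050 CPM in the controls. No library of one line overlapped those of another. The log2 fold change of Sparc was -0.30 ± 0.03 in the overexpression line (adjusted p = 6.11e-06) and -0.46 ± 0.03 in the knockdown line (adjusted p = 3.13e-08), and the overexpression line stood above the knockdown line by 0.16 ± 0.03 (adjusted p = 0.00274, but 0.177 with limma on log2(TPM + 1)).

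The other matricellular genes, whose products modulate cell contact with the matrix more than they build it, were low. Thbs3, a thrombospondin, stood at 32.5, 32.5 and 28.8 CPM in the overexpression libraries, 27.4, 30.1 and 22.7 CPM in the knockdown libraries and 24.1, 22.2 and 21.2 CPM in the controls. It rose in the overexpression line (0.47 ± 0.11, adjusted p = 0.00357), where no library overlapped the controls. In the knockdown line, where 1 library lay among the controls, the change was 0.25 ± 0.11 (adjusted p = 0.0818). Thbs2 stayed between 0.184 and 1.82 CPM and was not called in any comparison. Tnc (tenascin C, a glycoprotein of wounds and tumour stroma that opposes adhesion to fibronectin) was under the filter, and is given here because of its values, outside the naming rule. It had 0 counts in all 6 perturbed libraries and 34 counts in the controls together, with 0.245, 0.909 and 0.739 CPM in the 3 of them. With a floor of 3 counts over a line, the pooled control level (0.64 CPM) was 11.9-fold above the floor of the overexpression line. It was 11.8-fold above that of the knockdown line. These ratios leave out the counting error of the 34 control counts and the spread among the control libraries.

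Fibronectin mRNA is spliced at exons EIIIB and EIIIA, which plasma fibronectin of the liver lacks and cellular fibronectin can hold. Annotated transcripts of Fn1 were sorted by whether they held the 270 bases of EIIIA (4 transcripts with it, 4 without) or the 273 bases of EIIIB (1 with, 7 without). The share of TPM in transcripts with EIIIA was 52.8%, 71.6% and 53.7% in the overexpression libraries, 54.9%, 53.1% and 58.5% in the knockdown libraries and 65.3%, 69.9% and 66.4% in the controls. The knockdown libraries lay below every control, and 1 overexpression library lay above all controls while the other 2 lay below. Means were 59.4 ± 10.6%, 55.5 ± 2.78% and 67.2 ± 2.42% in the overexpression, knockdown and control lines, and 53.2% in the overexpression line without its replicate 2. EIIIB was rare, at 0.442% to 4.36% in the overexpression libraries, 0% to 4.24% in the knockdown libraries and 2.73% to 3.32% in the controls. These shares are Salmon's division of reads between transcripts that are alike over most of their length, with no count of reads across the splice sites, and no test was made.

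**Figure D3:**
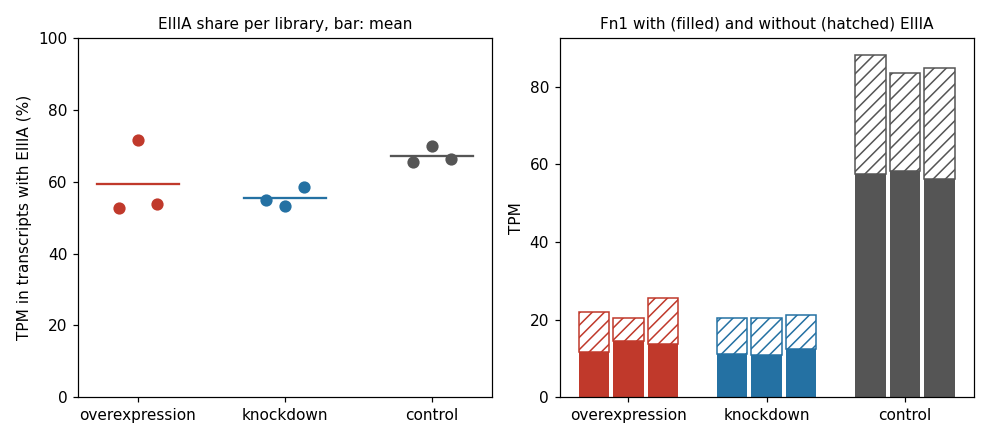
Left, percent of Fn1 TPM in transcripts that hold exon EIIIA, 1 dot per library and a bar at the mean of each line. Right, TPM of Fn1 transcripts with (filled) and without (hatched) EIIIA in each library, counting the transcripts that span the exon; both kinds are lower in the 6 perturbed libraries, and the EIIIA share of the knockdown libraries (53.1% to 58.5%) is under that of the controls (65.3% to 69.9%).

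The few laminin chain genes called against the control line were all higher. Their shares lay near those of all tested genes, and only the calls of Lamc1 held under every other setting. Of 11 chain genes 7 were tested. In the overexpression line 1 rose and none fell, in the knockdown line 3 rose and none fell, and 2 were lower in the overexpression than in the knockdown line. These were 14.3%, 42.9% and 28.6% of the 7, against 24.3%, 35.4% and 22.1% of all tested genes. Lamc1 was at 229, 212 and 228 CPM in the overexpression libraries, 256, 272 and 259 CPM in the knockdown libraries and 139, 147 and 136 CPM in the controls. All 3 lines were apart, with the knockdown line highest. The rise was 1.59-fold in the overexpression line (0.67 ± 0.05, adjusted p = 5.03e-08) and 1.87-fold in the knockdown line (0.90 ± 0.05, adjusted p = 5.94e-10), and the overexpression line stood below the knockdown line by 0.23 ± 0.05 on the log2 scale (adjusted p = 0.00157).

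The alpha chains, which carry the binding sites for integrins and dystroglycan, moved less. Lama5, the alpha chain of the laminins of mature epithelial basement membranes, was measured at 52.6, 52.3 and 51.9 CPM in the overexpression libraries, 56.3, 66.5 and 66.5 CPM in the knockdown libraries and 52.0, 48.0 and 46.7 CPM in the controls. It rose in the knockdown line, whose libraries all lay above the others (0.37 ± 0.08, adjusted p = 0.00133, or 0.0502 with limma on log2(TPM + 1)). The change in the overexpression line was 0.10 (adjusted p = 0.405), and the 2 lines differed by -0.27 ± 0.08 for overexpression against knockdown (adjusted p = 0.0177), which did not pass without knockdown replicate 2 (0.0603) or 3 (0.0583), with a length offset (0.0705) or with limma on log2(TPM + 1) (0.218). Lama4, the alpha chain of vascular and mesenchymal laminins, stood at 97.0, 84.7 and 89.1 CPM in the overexpression libraries, 104, 94.5 and 105 CPM in the knockdown libraries and 86.2, 87.8 and 88.3 CPM in the controls. The knockdown libraries were above the controls by 0.21 ± 0.06 (adjusted p = 0.0141), a call that was lost without knockdown replicate 1 (adjusted p = 0.0529), and the overexpression libraries overlapped the controls (0.05, adjusted p = 0.651).

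Lamb2, a beta chain, did not pass in any comparison: it lay between 90.8 and 96.9 CPM in the overexpression libraries, 96.8 and 101 CPM in the knockdown libraries and 93.5 and 99.0 CPM in the controls, and the adjusted p-values were 0.86, 0.535 and 0.442 for overexpression against control, knockdown against control and overexpression against knockdown. Per length, Lamc1 therefore stood differently to its partner chains, described here with no test. The ratio of Lamc1 to Lama4 plus Lama5 in TPM was 1.52 ± 0.03 in the overexpression line, 1.56 ± 0.08 in the knockdown line and 0.992 ± 0.026 in the control line. The 11 chain genes summed to 112 ± 5.1, 131 ± 5.1 and 92 ± 4.1 TPM in the overexpression, knockdown and control lines, and no libraries of 2 lines overlapped. This sum includes Lamb1, whose values were unstable (4.79 ± 7.4 TPM in the control line), as described next. Any reads missing from Lamb1 would be missing from the sum too. Lama3, an alpha chain of epithelial laminin, stayed at or under 1.47 CPM and was not called.

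Lamb1, the other beta chain that pairs with Lamc1, gave values that no comparison can rest on. It had 5.85, 6.47 and 11.1 CPM in the overexpression libraries, 12.8, 26.4 and 0 CPM in the knockdown libraries and 4.11, 0 and 54.3 CPM in the controls, a coefficient of variation of 129%, and was not called (adjusted p = 0.412, 0.702 and 0.683 for overexpression against control, knockdown against control and overexpression against knockdown). A transcript of 5778 bases that the annotation used here does not hold, and to which no gene is given, was then looked at. It was chosen after the Lamb1 values had been seen, as the one of 116 such transcripts above 8 CPM with the lowest Pearson correlation with Lamb1 over the 9 libraries. Its levels were 41.6, 41.3 and 48.3 CPM in the overexpression libraries, 60.1, 52.2 and 74.6 CPM in the knockdown libraries and 56.2, 60.8 and 2.68 CPM in the controls. It was lowest in the control library where Lamb1 was highest. Its correlation with Lamb1 was -0.831, and that of the next of the 116 was -0.751. Added to Lamb1 it gave 47.5 to 59.4 CPM, 73 to 78.6 CPM and 57 to 60.8 CPM in the overexpression, knockdown and control lines. Because the transcript was picked for its inverse pattern, a steadier sum follows in part from the choice. Whether Salmon divided the reads of 1 gene between these entries was not tested.

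**Figure D4:**
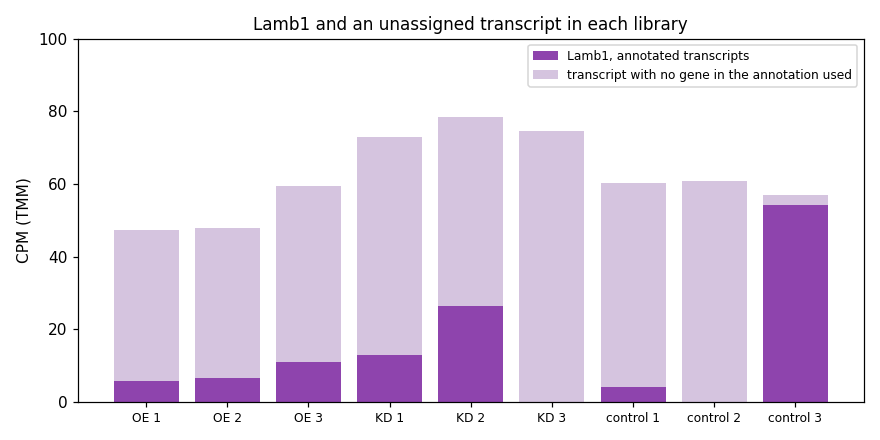
CPM of Lamb1 (dark) and of a transcript with no gene in the annotation used (light), stacked for each library, with the overexpression (OE), knockdown (KD) and control libraries from left to right. The dark part ranges from 0 to 54.3 CPM within the control line, while the stacked height stays between 57 and 60.8 CPM there.

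All 4 genes that link laminin to the rest of the basement membrane were tested. In the overexpression line 2 fell and none rose, in the knockdown line 3 fell and 1 rose, and between the 2 lines 1 was higher and 2 were lower in the overexpression line. Of all tested genes, 24.3%, 35.4% and 22.1% were called in these 3 comparisons. Agrn, the heparan sulfate proteoglycan that joins laminin to dystroglycan, stood at 106, 106 and 114 CPM in the overexpression libraries, 118, 121 and 124 CPM in the knockdown libraries and 186, 179 and 193 CPM in the controls. Every perturbed library lay below every control. The log2 fold change was -0.78 ± 0.05 in the overexpression line (adjusted p = 1.22e-08) and -0.62 ± 0.05 in the knockdown line (adjusted p = 7.65e-08). The 2 lines differed by -0.16 ± 0.05 (adjusted p = 0.028), which did not pass without knockdown replicate 3 (0.0715), overexpression replicate 1 (0.0919) or overexpression replicate 2 (0.0867), with the 2 lines fitted alone (0.0566) or with limma on log2(TPM + 1) (0.0525).

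Hspg2 (perlecan, a large proteoglycan that binds laminin, collagen IV and growth factors) was lowest in the overexpression line, with 109, 96.7 and 110 CPM there, 169, 197 and 179 CPM in the knockdown libraries and 226, 209 and 227 CPM in the controls. No library of one line overlapped another line. It fell 2.1-fold in the overexpression line (-1.07 ± 0.06, adjusted p = 5.6e-09) and by less in the knockdown line (-0.28 ± 0.06, adjusted p = 0.00183), and the overexpression line was below the knockdown line (-0.79 ± 0.06, adjusted p = 1.62e-07). With limma on log2(TPM + 1) the fall in the knockdown line was not called (adjusted p = 0.235).

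The nidogens, rod-like linkers between laminin and collagen IV, changed in the knockdown line and in opposite directions. Nid1 was at 26.1, 24.9 and 26.2 CPM in the overexpression libraries, 14.7, 11.2 and 15.7 CPM in the knockdown libraries and 31.4, 33.9 and 23.1 CPM in the controls. The knockdown libraries were lowest and overlapped neither other line. Its log2 fold change was -0.19 in the overexpression line (adjusted p = 0.348) and -1.08 ± 0.14 in the knockdown line (adjusted p = 1.92e-05), and overexpression exceeded knockdown by 0.89 ± 0.14 (adjusted p = 0.00027). With limma on log2(TPM + 1) neither call passed, at -0.50 (adjusted p = 0.109) for knockdown against control and 0.57 (adjusted p = 0.12) for overexpression against knockdown, and with a length offset the second had an adjusted p of 0.0536. Nid2 was scarcer, at 3.73, 1.82 and 4.3 CPM in the overexpression libraries, 5.05, 6.31 and 6.38 CPM in the knockdown libraries and 1.84, 2.67 and 2.42 CPM in the controls. The knockdown libraries were the highest, and the other lines overlapped. It rose in the knockdown line (1.35 ± 0.31, adjusted p = 0.0029), though not with a transcript length offset (0.75, adjusted p = 0.184) or with limma on log2(TPM + 1) (0.48, adjusted p = 0.144), and 8.45% of its exon bases overlap an antisense gene, Rtraf. In the overexpression line the change was 0.51 (adjusted p = 0.276), and the direct comparison gave -0.84 for overexpression against knockdown (adjusted p = 0.0587).

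Fibrillins and latent TGF-beta binding proteins were represented by the binding proteins, since Fbn1 reached at most 0.344 CPM, Fbn2 was at 0 in all libraries and Ltbp2 reached at most 0.669 CPM. All 3 binding protein genes tested fell in the knockdown line, 1 of them fell in the overexpression line, and 2 were higher in the overexpression than in the knockdown line. Of all tested genes, 35.4%, 24.3% and 22.1% were called in these 3 comparisons. Ltbp4 stood at 13.1, 17.2 and 16.3 CPM in the overexpression libraries, 16.1, 13.8 and 17.2 CPM in the knockdown libraries and 39.4, 41.3 and 43.6 CPM in the controls. Both perturbed lines lay far below the controls and over each other. The fall was 2.68-fold in the overexpression line (-1.42 ± 0.11, adjusted p = 1.75e-07) and 2.64-fold in the knockdown line (-1.40 ± 0.11, adjusted p = 9.62e-08), with a difference between the 2 of -0.02 (adjusted p = 0.923).

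Ltbp1, which targets the TGF-beta latent complex to fibronectin and fibrillin, had a different pattern, with 10.5, 9.53 and 11.7 CPM in the overexpression libraries, 4.46, 3.87 and 2.31 CPM in the knockdown libraries and 8.7, 7.09 and 9.17 CPM in the controls. The knockdown libraries were the 3 lowest, and the overexpression libraries lay just above the controls. Ltbp1 fell in the knockdown line (-1.22 ± 0.22, adjusted p = 0.000409), changed by 0.35 ± 0.21 in the overexpression line (adjusted p = 0.258) and was higher in the overexpression than in the knockdown line (1.56 ± 0.22, adjusted p = 8.43e-05). Ltbp3 was the most abundant of the family, at 84.9, 90.1 and 89.8 CPM in the overexpression libraries, 69.8, 84.0 and 78.0 CPM in the knockdown libraries and 91.5, 90.8 and 91.1 CPM in the controls. The knockdown libraries were again the lowest. Its fall in the knockdown line (-0.24 ± 0.07, adjusted p = 0.00941) rested on knockdown replicate 1, without which it was -0.17 (adjusted p = 0.0542), and it was not called with a transcript length offset (adjusted p = 0.267) or with limma on log2(TPM + 1) (adjusted p = 0.403). The difference between the perturbed lines (0.19, adjusted p = 0.0456) was lost without any single library except knockdown replicate 2, with adjusted p-values of 0.0639 to 0.223, and under most other settings.

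The 2 abundant fibulins, which bind tropoelastin and, for Fbln5, integrins, fell in the knockdown line and not in the overexpression line. Fbln1 was measured at 182, 179 and 177 CPM in the overexpression libraries, 107, 119 and 121 CPM in the knockdown libraries and 179, 183 and 173 CPM in the controls. Fbln5 was measured at 200, 217 and 195 CPM in the overexpression libraries, 118, 119 and 116 CPM in the knockdown libraries and 202, 200 and 195 CPM in the controls. For both genes the knockdown libraries lay well below the other 6, which overlapped. Knockdown against control gave -0.63 ± 0.05 for Fbln1 (adjusted p = 7.42e-08) and -0.75 ± 0.05 for Fbln5 (adjusted p = 4.79e-09). Overexpression against control gave 0.01 (adjusted p = 0.93) and 0.04 (adjusted p = 0.63) for the same genes. The direct test of overexpression against knockdown gave 0.64 ± 0.05 for Fbln1 (adjusted p = 1.19e-07) and 0.79 ± 0.05 for Fbln5 (adjusted p = 6.21e-09).

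Efemp2 (fibulin 4, needed for lysyl oxidase to reach elastic fibres) was at 24.9, 21.8 and 27.3 CPM in the overexpression libraries, 24.7, 31.9 and 23.1 CPM in the knockdown libraries and 34.3, 30.7 and 29.6 CPM in the controls. The overexpression libraries were below the controls (-0.35 ± 0.12, adjusted p = 0.0415), a call that was lost without overexpression replicate 1 or 2 and without any one control (adjusted p = 0.0563 to 0.165), with a length offset (0.496), with limma on log2(TPM + 1) (0.619) or with the replicate number as a block (0.0668). In the knockdown line the change was -0.25 (adjusted p = 0.122). Fbln2, Fbln7 and Efemp1 were under the filter, none above 0.606 CPM.

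Matn3 had the largest fall of the 27 genes. This matrilin, an adaptor of cartilage matrix, was at 2.4, 1.0 and 1.89 CPM in the overexpression libraries, 2.80, 2.74 and 2.67 CPM in the knockdown libraries and 22, 20.4 and 25.6 CPM in the controls. The highest perturbed library held less than 3 CPM and the lowest control more than 20 CPM. The fall was 12.6-fold in the overexpression line (-3.66 ± 0.23, adjusted p = 1.21e-08) and 8.27-fold in the knockdown line (-3.05 ± 0.22, adjusted p = 2.65e-08), and the difference between the 2 lines was -0.61 (adjusted p = 0.0907). Matn2, a matrilin of wider distribution, stood at 9.24, 10.1 and 10.8 CPM in the overexpression libraries, 13.6, 15.0 and 15.4 CPM in the knockdown libraries and 16.9, 20.1 and 15.9 CPM in the controls. It fell in the overexpression line (-0.81 ± 0.13, adjusted p = 0.000228), and it was lower there than in the knockdown line (-0.54 ± 0.13, adjusted p = 0.00577, or 0.0752 with limma on log2(TPM + 1)). The knockdown line differed from the controls by -0.26 (adjusted p = 0.117), although no library overlapped.

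Coch (cochlin, a secreted protein of the inner ear that, like the matrilins, carries von Willebrand factor A domains) was high in the knockdown line. It was at 1.08, 0.941 and 1.38 CPM in the overexpression libraries, 7.57, 8.75 and 6.56 CPM in the knockdown libraries and 1.47, 0.788 and 1.38 CPM in the controls. The overexpression libraries overlapped the controls. Coch rose 6.24-fold in the knockdown line (2.64 ± 0.32, adjusted p = 7.73e-06), changed by -0.10 in the overexpression line (adjusted p = 0.867), and was lower in the overexpression than in the knockdown line by 2.74 ± 0.32 on the log2 scale (adjusted p = 1.16e-05). Matn1 was at 0 in every library and Matn4 reached at most 0.0943 CPM.

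Link proteins fasten hyaluronan to aggrecan-type proteoglycans such as versican. Hapln1, the link protein of cartilage and skin, was at 7.07, 6.35 and 7.62 CPM in the overexpression libraries, 22.7, 17.7 and 24.3 CPM in the knockdown libraries and 18.6, 15.6 and 18.1 CPM in the controls. The overexpression libraries were far below the other 6. Hapln1 fell 2.49-fold in the overexpression line (-1.31 ± 0.14, adjusted p = 4.71e-06), changed by 0.31 ± 0.13 in the knockdown line (adjusted p = 0.083) and was lower in the overexpression than in the knockdown line (-1.62 ± 0.14, adjusted p = 4.54e-07). Hapln4, the link protein of brain perineuronal nets, stood at 5.33, 5.35 and 4.93 CPM in the overexpression libraries, 8.30, 8.99 and 9.42 CPM in the knockdown libraries and 1.72, 2.12 and 1.33 CPM in the controls. All 3 lines were apart. Hapln4 rose 3.03-fold in the overexpression line (1.60 ± 0.23, adjusted p = 8.62e-05) and 5.18-fold in the knockdown line (2.37 ± 0.23, adjusted p = 6.88e-07), and the overexpression line was below the knockdown line by 0.77 ± 0.21 on the log2 scale (adjusted p = 0.0127, or 0.0613 with limma on log2(TPM + 0.1)). Vcan (versican) ranged from 0.0606 to 1.35 CPM and was not called, Hapln2 was at 0 throughout, and Hapln3 had at most 0.0472 CPM.

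The small leucine-rich proteoglycans, which decorate collagen fibrils in connective tissue, were near 0: Bgn, Dcn and Lum reached at most 0.121, 0.357 and 0.238 CPM. Among the laminin chains, Lama1, Lama2, Lamb3 and Lamc3 were also under the filter, Lamc3 with 0.802, 0.647 and 0.287 CPM in the overexpression libraries and at most 0.179 CPM in the knockdown and control libraries. In all, 18 of the 45 genes were not tested, and 3 of them (Fbn2, Hapln2 and Matn1) had no count in any library. The libraries do not mark strand, so reads from a gene and an antisense gene that overlaps its exons cannot be told apart. Apart from the 8.45% of Nid2, this touches 6.59% of the exon bases of Thbs3, 4.57% of Efemp2, 2.5% of Fn1, 2.26% of Tnc, 2.06% of Nid1, 2.01% of Ltbp3 and 1.12% of Matn2, and none in the other genes called above.

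**Figure D5:**
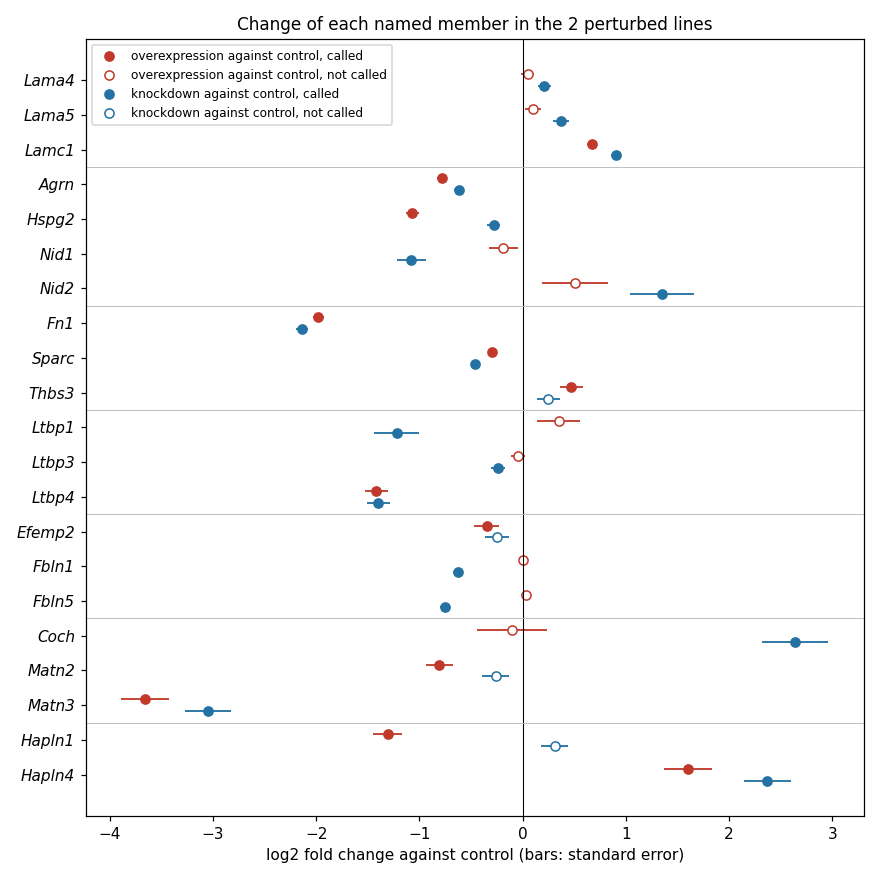
Log2 fold change with its standard error for the same 21 genes, grouped by role from laminin chains at the top to link proteins at the bottom; red is overexpression against control and blue knockdown against control, both with the same 3 control libraries, and filled points were called at an adjusted p under 0.05. Lamc1 and Hapln4 lie to the right of 0 and Fn1, Agrn, Ltbp4 and Matn3 to the left of it in both lines, while Coch, Fbln1, Fbln5 and Ltbp1 are called in the knockdown line only.

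Receptors for laminin and fibronectin were measured alongside. Of 24 listed 23 were tested. In the overexpression line 5 rose and 6 fell, and in the knockdown line 10 rose and 5 fell. Against the knockdown line, 4 were higher and 11 lower in the overexpression line. The shares called among all tested genes were 24.3% for overexpression against control, 35.4% for knockdown against control and 22.1% between the perturbed lines. Itga3, the alpha chain of a laminin-binding integrin, had the largest fall, at 3.91, 4.0 and 4.81 CPM in the overexpression libraries, 3.52, 2.26 and 2.19 CPM in the knockdown libraries and 17, 13.3 and 13.9 CPM in the controls (-1.79 ± 0.21, adjusted p = 9.03e-06, and -2.45 ± 0.21, adjusted p = 2.48e-07). No perturbed library reached the controls. Itga5, which pairs with Itgb1 to form the main fibronectin receptor, rose while its ligand gene fell: means were 52.4 ± 1.8 CPM in the overexpression line, 67.2 ± 4.0 CPM in the knockdown line and 40.7 ± 1.8 CPM in the control line, and the log2 fold changes were 0.36 ± 0.07 (adjusted p = 0.00129) in the overexpression line and 0.72 ± 0.07 (adjusted p = 7.89e-07) in the knockdown line. Itgb1, the shared beta chain, averaged 598 ± 14, 578 ± 23 and 697 ± 6.2 CPM in the overexpression, knockdown and control lines and fell by 0.22 (adjusted p = 0.000451) and 0.27 (adjusted p = 3.7e-05) in the 2 perturbed lines. Itga6, another laminin-binding chain, fell in the overexpression line (-0.43 ± 0.05, adjusted p = 1.82e-05) and changed by -0.02 in the knockdown line (adjusted p = 0.826). Itga4 rose in the knockdown line (0.63 ± 0.07, adjusted p = 1.5e-06) and not in the overexpression line (0.03, adjusted p = 0.815).

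Among 15 collagens and partners of the basement membrane 10 were tested: 1 rose and 5 fell in the overexpression line, and 4 rose and 2 fell in the knockdown line. Of all tested genes, 24.3% and 35.4% were called in these 2 comparisons. Col4a1, a chain of the collagen IV network that nidogen and perlecan bind, was at 32.6, 33.4 and 38.2 CPM in the overexpression libraries, 73.2, 71.8 and 68.4 CPM in the knockdown libraries and 47.0, 47.8 and 47.0 CPM in the controls. The controls lay between the 2 perturbed lines, with a fall in the overexpression line (-0.44 ± 0.07, adjusted p = 0.000342), a rise in the knockdown line (0.59 ± 0.07, adjusted p = 8.59e-06) and a difference between the 2 of -1.04 ± 0.07 (adjusted p = 3.98e-08). Its partner chain Col4a2 fell in the overexpression line (-0.42 ± 0.10, adjusted p = 0.00685) and changed by 0.25 ± 0.10 in the knockdown line (adjusted p = 0.0688). Col4a4 rose in the overexpression line (0.75 ± 0.17, adjusted p = 0.00491), Smoc1, a calcium-binding relative of Sparc, fell in both lines (-0.66 and -0.56, adjusted p = 0.00834 and 0.014 in the overexpression and knockdown lines), and Frem2 rose in the knockdown line, at a low level (2.71 ± 0.76, adjusted p = 0.0108).

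Of 20 crosslinking and assembly enzymes 15 were tested, with 2 higher and 4 lower in the overexpression line and 3 higher and 6 lower in the knockdown line. Of all tested genes, 24.3% and 35.4% were called in these 2 comparisons. Serpinh1, the collagen chaperone, averaged 967 ± 6.4, 914 ± 58 and 1300 ± 23 CPM in the overexpression, knockdown and control lines (-0.42, adjusted p = 1.66e-06, and -0.50, adjusted p = 1.17e-07). Loxl2, a lysyl oxidase that crosslinks collagen IV, fell in both lines (-0.93 ± 0.12, adjusted p = 3.54e-05, in the overexpression line and -1.21 ± 0.12, adjusted p = 1.39e-06, in the knockdown line). Plod1, a lysyl hydroxylase, rose in both (0.53 ± 0.05, adjusted p = 1.09e-06, and 0.39 ± 0.05, adjusted p = 1.58e-05). Of 11 elastic fibre partners 5 were tested. Adamtsl4, which binds fibrillin, rose in the knockdown line (1.28 ± 0.09, adjusted p = 2.46e-08), Adamtsl2 fell there (-1.63 ± 0.58, adjusted p = 0.037), and Emilin1 fell in the overexpression line (-0.22 ± 0.06, adjusted p = 0.0161).

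TGF-beta is held in the matrix by the latent binding proteins and is known to induce Fn1 in many cell types. Of 17 ligands, receptors and response genes 16 were tested, with 2 higher and 2 lower in the overexpression line and 2 higher and 7 lower in the knockdown line. Of all tested genes, 24.3% and 35.4% were called in these 2 comparisons. Whether TGF-beta had a part in the fall of Fn1 was not tested. Tgfb2 fell in both lines (-0.95 ± 0.10, adjusted p = 3.26e-06, in the overexpression line and -0.70 ± 0.10, adjusted p = 3.33e-05, in the knockdown line). The receptor gene Tgfbr2 rose in both (0.31 ± 0.07, adjusted p = 0.00251, and 0.67 ± 0.07, adjusted p = 8.79e-07), and Tgfb1 rose in the overexpression line (0.56 ± 0.13, adjusted p = 0.00498).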

How the data were processed

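Per the labels' protocols, libraries that do not keep strand were prepared from total RNA of B16F10 cells, and both ends were read over 150 bases. The authors deposited a transcript table for each library. Its columns, per the file headers, are the estimated count (not always whole), TPM and lengths. Salmon 1.4.0, DESeq2 1.34.0, MultiQC 1.11 and the mm39 build are named, without order, in the submitters' processing notes. The annotation release is not given in the sources used here.

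Transcripts were matched by identifier, without version, to GENCODE M21 of GRCm38: 137161 of 140789 matched (97.42%), and those that did not, with 0.554% to 0.654% of a library's counts, entered neither library sizes nor tests. An isoform missing from M21 is missing from its gene's total. The deposited estimated counts and TPM were summed per gene, and counts rounded. RefSeq promoter windows are of GRCm38.p6, and no coordinates of the files were converted.

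Genes were tested in R 4.3.3 by edgeR 4.0.16, after filterByExpr and TMM scaling. Its quasi-likelihood model held the line as sole factor over the 9 libraries, with 3 contrasts and Benjamini-Hochberg adjustment over 13064 genes. It was tested on simulated data. CPM use TMM library sizes, and TPM serve to compare genes per length. Standard errors were computed as the log2 change over the root of its F value. Libraries of a line differed from each other beyond sampling noise (chi-square per degree of freedom 4.79 to 10.64), so none was a copy. Alternatives were DESeq2 1.42.0, its size factors in edgeR, other filters, a replicate block, each library left out, pairwise fits, an effective length offset, and limma 3.58.1 on log2(TPM + 1) and log2(TPM + 0.1).

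Every library is given for each gene of the set called in at least 1 contrast and with a mean of at least 5 CPM in a line; other lists give up to 3 genes with the lowest adjusted p per comparison with control, and 2 genes are not reported here. The members and lists were chosen with earlier results of these data known. Values after ± are standard errors for log2 fold changes and SDs of 3 libraries for levels, shares and ratios. The floor for Tnc covers counting error of the perturbed lines only.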

Additional observations from a re-analysis of the deposited data

How the results depend on the processing

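Over 18 other settings, 29 of the 43 called changes of single genes kept their call and direction, 14 were lost under at least 1, and 0 reversed. The counts of called genes stayed within 1.5 times their value except between the overexpression and knockdown lines with limma: 14 fell to 8 on log2(TPM + 1) and 7 on log2(TPM + 0.1), the 6 higher genes to 3 and 3, and the 8 lower genes to 5 and 4. All tested genes called in that comparison fell from 2887 to 1162 on log2(TPM + 1), and the cause was not tested. On that scale the values of low genes are compressed: in the knockdown line Coch was at 1.66, Hapln4 at 1.56 and Matn3 at -2.33, and in the overexpression line Hapln4 was at 0.90 and Matn3 at -2.70, all still called. Leaving out 1 library at a time gave 11 to 14 called genes for overexpression against control (3 to 4 higher, 8 to 10 lower), 16 to 20 for knockdown against control (5 to 7 higher, 11 to 13 lower) and 11 to 15 between the perturbed lines (5 to 7 higher, 6 to 9 lower). In alternatives added after seeing the data, leaving out a library gave 20 to 22, 22 to 25 and 20 to 22 genes at 1 TPM or more in the overexpression, knockdown and control lines, EIIIA shares of 53.2% to 62.6%, 54.0% to 56.7% and 65.8% to 68.2%, and EIIIB shares of 1.13% to 3.09%, 0.953% to 3.07% and 2.85% to 3.15%. Libraries with the same replicate number showed little common deviation from their line means (correlations of -0.093 to 0.127). Whether the samples were handled as pairs cannot be settled by these correlations. With replicate number as a block, 11 genes were called for overexpression against control, 17 for knockdown against control and 14 for overexpression against knockdown. Efemp2 in the overexpression line was then lost (adjusted p = 0.0668). At this depth 18 genes were under the filter on low counts.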
